A study of Mus musculus with 27 samples.

Results

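Olig1, Olig2, Sox10, Pdgfra, Cspg4, Gpr17, Aspa, Gjc3 and Mbp are 9 genes of the oligodendrocyte lineage, chosen by symbol from a list, and each was found once among the 37332 genes of the count table and the 53379 genes of the table of TPM, a length-corrected share of a library's transcripts. They were measured in 27 libraries of mouse RNA from 3 kinds of cultured cells, each split into chromatin-associated, soluble nucleoplasmic and cytoplasmic RNA with 3 biological replicates. mCtx is a primary culture of cortical neurons kept for 5 days on poly-L-lysine. mNPC is a neural progenitor cell line made by the submitters and fed each day with EGF and FGF at 10 ng/ml in a medium with B27 lacking vitamin A. mESC is the E14 embryonic stem cell line, grown on gelatin with LIF. Both mNPC and mESC are single lines, and the labels do not say whether mNPC is a clone, while a primary culture can hold more than one cell type. RNA over 200 nt was depleted of ribosomal RNA and sequenced without selection for poly(A) tails, so unspliced RNA was captured as well.

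Oligodendrocytes make the myelin of the central nervous system. They arise from neural progenitors through oligodendrocyte precursor cells, which divide in response to PDGF, and then through committed cells that switch on myelin genes. Olig1 and Olig2 are basic helix-loop-helix transcription factors and Sox10 is an HMG-box transcription factor of this lineage. Pdgfra (the PDGF receptor alpha) and Cspg4 (the NG2 proteoglycan) stand on the surface of precursors, and Gpr17, a G protein-coupled receptor, marks cells leaving that stage. Aspa (aspartoacylase, which breaks down N-acetylaspartate), Gjc3 (a gap junction connexin) and Mbp (myelin basic protein) are used as genes of oligodendrocytes further along. None of them belongs to this lineage alone: Pdgfra is also known from mesenchyme and primitive endoderm, Cspg4 from pericytes, and Sox10, Gjc3 and Mbp from Schwann cells.

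The libraries held 11249862 to 19871198 gene counts each. The labelled cell types carried their defining markers: all 10 neuron markers were higher in mCtx than in mESC in each fraction, all 7 pluripotency markers were lower in mNPC and in mCtx than in mESC, and 5 of 7 neural progenitor markers were higher in mNPC than in mESC in nucleoplasm and in cytoplasm. All 7 were at a mean of 1 TPM or more in mCtx and mNPC, and 6 of the 7 in mESC. Mitochondrial mRNA, which lies outside the nucleus, made up 5.72% ± 1.27 of the counts in the mNPC nucleoplasm, against 0.123% ± 0.0288 in the mNPC cytoplasm (SD, n = 3 each), and it was also higher in nucleoplasm than in cytoplasm in mCtx and mESC. What the nucleoplasmic libraries hold besides nuclear RNA was not tested. In bulk RNA, fewer cells of a type and less RNA per cell cannot be told apart, and levels are relative to the other RNA of the same fraction.

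Promoter sequences are given for the regulator Olig2 and for 3 surface protein genes that were higher in mNPC with it, as the stretch from 250 bases before to 50 bases after each start. The sequences are RefSeq's on build GRCm38.p6, 5′ to 3′ on the gene's own strand. Capitals mark CANNTG, the E-box letters that basic helix-loop-helix factors can bind, searched on both strands (CANNTG reads the same on either). Olig2 lies at chr16:91225300-91225599 on the plus strand, Pdgfra at chr5:75152001-75152300 on the plus strand, Cspg4 at chr9:56864854-56865153 on the plus strand and Gjc3 at chr5:137963049-137963348 on the minus strand.
Olig2 promoter: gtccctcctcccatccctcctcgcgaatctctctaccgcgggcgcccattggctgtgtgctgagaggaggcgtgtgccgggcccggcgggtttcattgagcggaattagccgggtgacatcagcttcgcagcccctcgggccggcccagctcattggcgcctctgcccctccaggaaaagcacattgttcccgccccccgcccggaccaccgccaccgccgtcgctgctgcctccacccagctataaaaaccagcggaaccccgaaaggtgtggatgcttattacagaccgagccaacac
Pdgfra promoter: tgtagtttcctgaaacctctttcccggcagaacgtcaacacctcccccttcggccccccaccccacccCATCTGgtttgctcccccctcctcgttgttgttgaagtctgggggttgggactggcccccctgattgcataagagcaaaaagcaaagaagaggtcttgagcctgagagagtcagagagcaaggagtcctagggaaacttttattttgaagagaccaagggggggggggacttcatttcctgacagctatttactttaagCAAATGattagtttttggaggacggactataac
Cspg4 promoter: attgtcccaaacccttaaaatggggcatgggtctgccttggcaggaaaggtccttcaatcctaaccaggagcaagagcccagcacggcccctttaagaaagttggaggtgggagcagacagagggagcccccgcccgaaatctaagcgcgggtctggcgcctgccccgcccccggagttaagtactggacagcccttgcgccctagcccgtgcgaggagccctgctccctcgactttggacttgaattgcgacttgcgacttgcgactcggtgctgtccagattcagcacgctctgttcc
Gjc3 promoter: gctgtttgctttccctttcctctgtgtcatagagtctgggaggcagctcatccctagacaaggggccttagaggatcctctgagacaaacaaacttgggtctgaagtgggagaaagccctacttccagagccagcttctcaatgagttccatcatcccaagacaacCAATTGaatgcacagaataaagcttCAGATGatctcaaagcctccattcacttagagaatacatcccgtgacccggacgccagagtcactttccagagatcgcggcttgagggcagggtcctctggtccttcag
Pdgfra held 2 matches, CATCTG and CAAATG, and Gjc3 held 2, CAATTG and CAGATG. The Olig2 and Cspg4 windows held 0, and that of Aspa, at chr11:73324588-73324887 on the minus strand, held 4. The Aspa window lies within the counted span of the gene (chr11:73304992-73326807) and not at its 5′ end. Of 32851 mouse promoters of the same 300 bases, 72.3% held at least 1 match and 6.49% held 4 or more, with a median of 1. A match is a run of letters and not a measured site, and 5 of the 9 genes had an entry in the promoter table.

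The first comparison asks how the 9 genes differ between cell types within a fraction. Most of the genes stood highest in mNPC: 8 of the 9 were higher in mNPC than in mESC on chromatin, and 9 of 9 in nucleoplasm and in cytoplasm (edgeR quasi-likelihood test, adjusted p under 0.05). Against the same test, 33.8% of the 18249 genes tested were higher on chromatin, 35.7% in nucleoplasm and 36.5% in cytoplasm. In mCtx, 8 of the 9 were lower than in mNPC in each fraction, beside 39.2% of all genes tested on chromatin, 34.9% in nucleoplasm and 33.4% in cytoplasm. On chromatin, counts scaled to library totals in place of TMM (trimmed mean of M-values) factors moved the share of higher genes among all those called between mCtx and mNPC to 27.6%, beside 43.5%. The gene that missed the test on chromatin between mNPC and mESC, and in each fraction between mCtx and mNPC, was Mbp. Within a fraction the ranges of the 3 cell types in CPM did not overlap for Olig1, Olig2, Sox10, Pdgfra, Cspg4 and Aspa. In TPM those of mCtx and mESC overlapped on chromatin for Sox10, Pdgfra, Cspg4 and Aspa. They also overlapped in TPM for Pdgfra and Aspa in nucleoplasm, where those of Sox10 touched, and for Cspg4 in cytoplasm. The median log2 fold change of the 9 genes was 5.65, 9.22 and 6.19 between mNPC and mESC on chromatin, in nucleoplasm and in cytoplasm, beside -0.18, -0.14 and -0.07 over all genes tested. Between mCtx and mNPC it was -5.41, -6.3 and -4.16, beside -0.18, 0.0 and 0.0, and all 6 medians stay the same with each gene at 0 in a group set at its bound. Gpr17 and Gjc3 entered the test only through their counts in mNPC and so had to differ there, and the other 7 also passed the filter on low counts without the mNPC libraries. Leaving out any 1 library changed none of the member counts in these 6 comparisons.

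**Figure D1:**
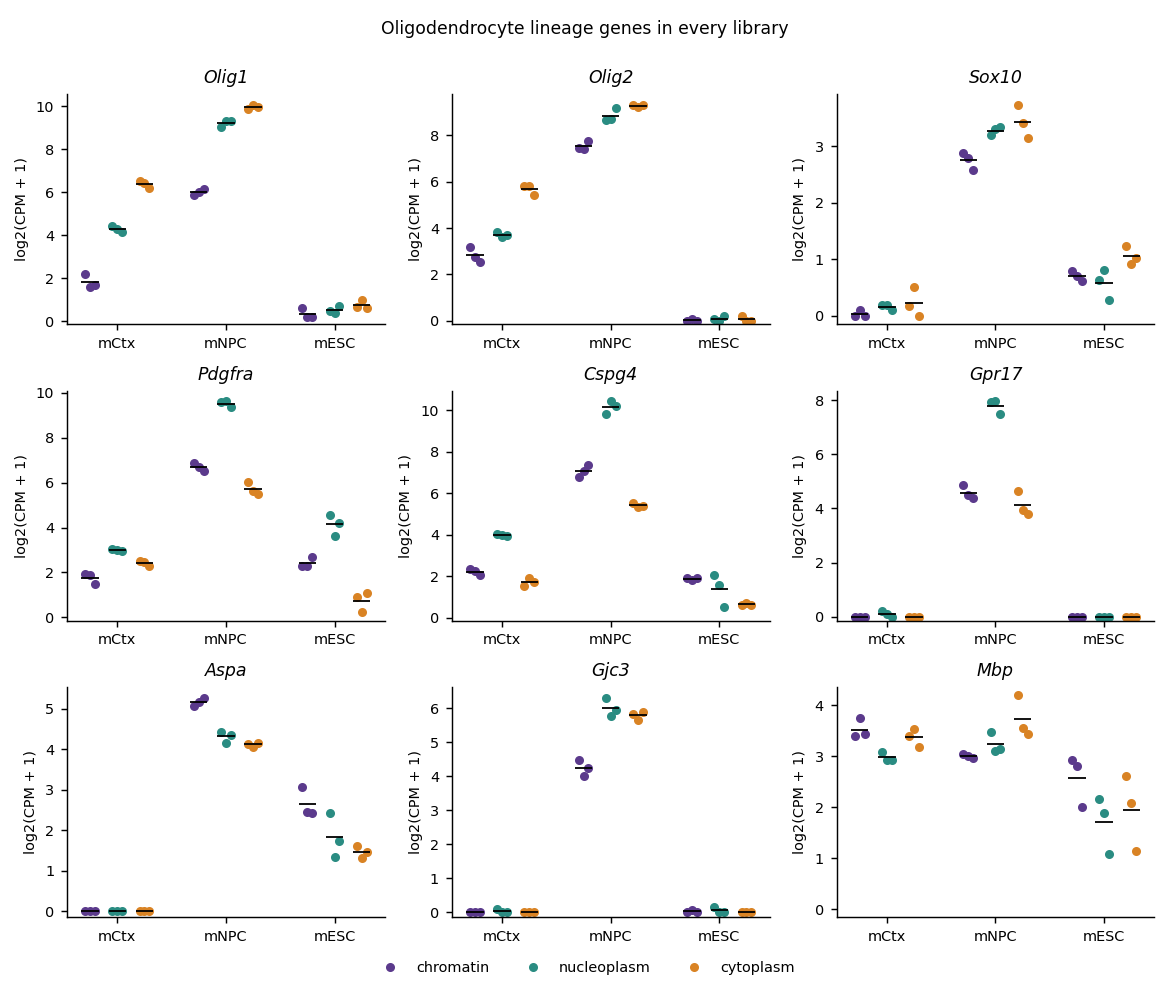
Levels of the 9 genes as log2(CPM + 1) in each of 27 libraries (points) with the mean of each group (lines), by cell type on the x axis and by fraction in colour. 8 genes stand highest in mNPC in each fraction, while Mbp differs least, and Olig1 and Olig2 also stand well above mESC in mCtx.

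Among the transcription factors, Olig1 (chr16:91269769-91271939 on build mm10, as are all gene positions here, plus strand, 1 exon, ENSMUSG00000046160) was the most abundant member in the mNPC cytoplasm. In CPM, the counts as a share of a library size scaled by TMM factors, Olig1 stood at 71.3 to 89.1 CPM in the cytoplasm of mCtx, at 943.6, 1064.6 and 994.7 CPM in that of mNPC and at 0.592, 0.952 and 0.545 CPM in that of mESC. The 3 cell types did not overlap, in this fraction or in the others. On chromatin Olig1 averaged 2.56 ± 0.829 CPM in mCtx, 63.2 ± 6.38 CPM in mNPC and 0.284 ± 0.219 CPM in mESC (SD, n = 3 each). The log2 fold change of mNPC over mESC was 7.73 ± 0.27 on chromatin (SE, edgeR adjusted p = 6.51e-19), 10.39 ± 0.27 in nucleoplasm (3.44e-21) and 10.48 ± 0.26 in cytoplasm (2.1e-21).

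Olig2 (chr16:91225550-91228677, plus strand, 2 exons, ENSMUSG00000039830), which lies 41.1 kb upstream of Olig1 on the same strand, followed the same order of cell types. It had 54.4, 54.6 and 41.6 CPM in the mCtx cytoplasm, 623.2, 598.9 and 629.0 CPM in the mNPC cytoplasm, and 3 counts in all in the mESC cytoplasm. Those 3 counts came from 1 of the 3 mESC libraries, so Olig2 was at or near 0 in mESC. Olig1 was low there too, with 3 to 16 counts in each of the 9 mESC libraries. Per effective library size, Olig2 counts were 10800 times as high in mNPC as in mESC on chromatin (95% exact interval 1930 to 426000, from 9113 counts in mNPC and 1 in mESC) and 10700 times in cytoplasm (3650 to 51700). Such intervals cover counting error only. Between mCtx and mNPC the log2 fold change of Olig2 was -4.9 ± 0.22 on chromatin (edgeR adjusted p = 1.69e-16), -5.26 ± 0.22 in nucleoplasm (1.83e-17) and -3.62 ± 0.2 in cytoplasm (7.33e-15).

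Sox10 (chr15:79154913-79164490, minus strand, up to 5 exons, ENSMUSG00000033006) was expressed at a far lower level than the Olig genes. In the cytoplasm it had 0.125, 0.418 and 0.0 CPM in mCtx, 12.3, 9.6 and 7.85 CPM in mNPC and 1.35, 0.892 and 1.03 CPM in mESC. Unlike Olig1 and Olig2 it was lowest in mCtx, where the 9 libraries held 0 to 7 counts each. Sox10 was 211 times as high in mNPC as in mCtx on chromatin (interval 37.5 to 8360, from 1 count in mCtx and 289 in mNPC), and its log2 fold change of mNPC over mESC was 3.19 ± 0.35 there (edgeR adjusted p = 7.7e-09). On the TPM scale, which is per length, mNPC cytoplasm held 132.1 ± 19.9 TPM of Olig1, 71.4 ± 10.7 TPM of Olig2 and 1.01 ± 0.355 TPM of Sox10 (SD, n = 3).

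Pdgfra, Cspg4 and Gpr17 rose with the regulators, and their levels were highest in the nucleoplasm of mNPC. Pdgfra (chr5:75152291-75198204, plus strand, up to 23 exons in a transcript, ENSMUSG00000029231) had 7.18, 7.07 and 6.79 CPM in the mCtx nucleoplasm, 764.4, 788.3 and 653.5 CPM in that of mNPC and 22.6, 11.5 and 17.4 CPM in that of mESC. In nucleoplasm and on chromatin mCtx was thus the lowest of the 3 by CPM, though in TPM its range overlapped that of mESC in both. In cytoplasm mCtx (3.83 to 4.63 CPM) stood above mESC (0.178 to 1.09 CPM). The log2 fold change of mNPC over mESC was 4.58 ± 0.24 on chromatin (edgeR adjusted p = 3.37e-15), 5.42 ± 0.24 in nucleoplasm (6.96e-17) and 6.19 ± 0.3 in cytoplasm (4.74e-16).

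Cspg4 (chr9:56865104-56899870, plus strand, up to 10 exons, ENSMUSG00000032911) had 15.4, 14.9 and 14.1 CPM in the mCtx nucleoplasm, 917.0, 1397.2 and 1188.3 CPM in that of mNPC and 3.2, 2.01 and 0.425 CPM in that of mESC. mCtx thus lay between mNPC and mESC, as it did on chromatin and in cytoplasm, though on chromatin its difference from mESC missed the test (edgeR adjusted p = 0.188). The log2 fold change of mNPC over mESC was 9.22 ± 0.32 in nucleoplasm (edgeR adjusted p = 5.01e-19), 5.65 ± 0.28 on chromatin (7.43e-16) and 6.15 ± 0.33 in cytoplasm (4.07e-15). The 8 markers of pericytes and mesenchyme, cells also known for Cspg4, summed to 0.14 to 1.0 TPM in the mNPC nucleoplasm. They summed to 2.73 to 3.87 TPM in that of mCtx and 6.02 to 7.19 TPM in that of mESC. In mNPC 1 of the 8 (Lum) had 0 counts in nucleoplasm, 3 on chromatin and 4 in cytoplasm. The part of such cells in the Cspg4 values was not tested.

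Gpr17 (chr18:31942997-31949636, minus strand, 2 exons, ENSMUSG00000052229) was at or near 0 outside mNPC. The 9 mCtx libraries held 3 counts together, all in nucleoplasm, and the 9 mESC libraries were at 0. In mNPC it had 28.2, 21.5 and 20 CPM on chromatin, 243.7, 247.4 and 180.7 CPM in nucleoplasm and 23.9, 14.2 and 13.0 CPM in cytoplasm. Set against a floor of 3 counts per library, Gpr17 was at least 1180-fold higher in mNPC than in mESC in nucleoplasm, at least 151-fold on chromatin and at least 97.7-fold in cytoplasm. The gene lies wholly within Lims2 on the opposite strand, and the strand setting of the authors' counting is not given in the sources used here. Lims2 had 9 to 25 counts in each mCtx library, 64 to 147 in each mNPC library and 11 to 34 in each mESC library, so Lims2 was counted in libraries where Gpr17 was at 0. In the mNPC nucleoplasm Gpr17 had 2677, 3362 and 2476 counts, beside 64, 72 and 73 of Lims2.

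Of the genes of later cells, Aspa and Gjc3 also stood highest in mNPC. Aspa (chr11:73304992-73326807, minus strand, up to 7 exons, ENSMUSG00000020774) had 0 counts in all 9 mCtx libraries, 32.3, 34.6 and 37.5 CPM on the chromatin of mNPC and 7.42, 4.44 and 4.36 CPM on that of mESC. It was at least 139-fold lower in mCtx than in mNPC on chromatin, at least 88.7-fold in nucleoplasm and at least 81.6-fold in cytoplasm. The deposited TPM table gives Aspa other values in mCtx: 2.02, 2.99 and 2.6 TPM on chromatin, beside 5.14, 5.6 and 6.64 TPM in mNPC and 2.34, 1.95 and 2.35 TPM in mESC. The order of mNPC above mCtx holds in both tables, but the size of the difference does not. Of 14516 genes with 0 counts in the 3 mCtx chromatin libraries, 3169 (21.83%) had a mean of 0.5 TPM or more, so Aspa is one of many genes on which the tables differ.

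Gjc3 (chr5:137953809-137962959, minus strand, up to 3 exons, ENSMUSG00000056966) had 1 count in the 9 mCtx libraries together and 3 in the 9 mESC libraries. In mNPC it had 77.8, 53.8 and 60.7 CPM in nucleoplasm and 55.7, 49.0 and 58.5 CPM in cytoplasm. In cytoplasm it was at least 271-fold lower in mCtx than in mNPC and at least 313-fold higher in mNPC than in mESC. In TPM Gjc3 averaged 0.79 ± 0.192 on the chromatin of mCtx and 3.07 ± 0.343 on that of mNPC (SD, n = 3 each), again a smaller gap than in counts.

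Mbp (chr18:82475146-82585637, plus strand, 16 annotated transcripts, ENSMUSG00000041607) differed least. It had 9.5, 10.6 and 8.14 CPM in the cytoplasm of mCtx, 17.4, 10.8 and 9.79 CPM in that of mNPC and 5.12, 3.27 and 1.21 CPM in that of mESC. In this fraction mCtx and mNPC overlapped, whereas on chromatin mCtx stood at 9.53 to 12.4 CPM and mNPC at 6.84 to 7.29 CPM. Their difference did not pass the test in any fraction (edgeR adjusted p = 0.122 on chromatin, 0.434 in nucleoplasm and 0.256 in cytoplasm). The log2 fold changes were 0.59 ± 0.34, -0.31 ± 0.34 and -0.43 ± 0.33. Other settings differed: on chromatin Mbp was higher in mCtx by 0.85 in DESeq2 (adjusted p = 0.0245) and by 0.78 with the compared groups alone (edgeR adjusted p = 0.000121), but -0.02 with library totals (0.99), and in cytoplasm it was lower by -0.61 on the log2(TPM + 1) scale (limma adjusted p = 0.0068). Over mESC, Mbp was higher in mNPC by 1.78 ± 0.37 in nucleoplasm (edgeR adjusted p = 0.000101) and 1.98 ± 0.35 in cytoplasm (1.34e-05). On chromatin the value was 0.43 ± 0.34 and did not pass (0.247). Counts were taken over the whole span of a gene, introns included, and exons make up 7.66% of the Mbp span, the least of the 9 genes. This locus also gives the Golli transcripts, which are known from cells other than oligodendrocytes, and the counts do not separate them.

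mCtx and mESC are set against each other last, since both were low for most of the genes. The regulators split: Olig1 and Olig2 were higher in mCtx and Sox10 was lower. On chromatin 3 members were higher (Olig1, Olig2, Mbp) and 3 lower (Sox10, Pdgfra, Aspa), beside 33.0% higher and 47.4% lower of all genes tested. In nucleoplasm the counts were 4 and 3, beside 38.8% and 43.4%, and in cytoplasm 5 and 2, beside 40.1% and 41.6%. With counts scaled to library totals, the share of higher genes among those called on chromatin was 25.3%, beside 41.0%. In cytoplasm the log2 fold change of mCtx over mESC was 6.87 ± 0.24 for Olig1 (edgeR adjusted p = 5.35e-19), 2.6 ± 0.34 for Pdgfra (1.1e-07), 1.99 ± 0.41 for Cspg4 (8.85e-05) and 1.55 ± 0.35 for Mbp (0.000262). Olig2 was 880 times as high in mCtx as in mESC (interval 301 to 4270). On the log2(TPM + 1) scale Pdgfra, Cspg4 and Mbp did not pass in cytoplasm (limma adjusted p = 0.415, 0.91 and 0.244). Aspa was at least 21.6-fold lower in mCtx than in mESC on chromatin by counts, but in TPM its difference was 0.13 on the log2(TPM + 1) scale (limma adjusted p = 0.46). Mbp at 1.02 ± 0.34 (edgeR adjusted p = 0.00793) and Pdgfra at -0.83 ± 0.29 (0.0106) on chromatin were each lost without mESC chromatin replicate 3 (adjusted p = 0.0545 and 0.059), and Pdgfra also without mCtx chromatin replicate 3 (0.0555). With library totals Mbp was 0.23 (edgeR adjusted p = 0.539), and on the log2(TPM + 1) scale Mbp was 0.02 (limma adjusted p = 0.939) and Pdgfra -0.09 (0.69). Sox10 was lower in mCtx by counts in each fraction, but in no fraction in unfiltered TPM (limma adjusted p = 0.144 on chromatin, 0.591 in nucleoplasm and 0.121 in cytoplasm).

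The next comparison asks how the level of each gene, relative to the other RNA of a fraction, differed between fractions. Such levels do not give the share of a gene's RNA that each fraction held. In mNPC the 9 genes fell into unlike patterns. Olig1 and Olig2 RNA stood highest in cytoplasm and lowest on chromatin. Pdgfra, Cspg4 and Gpr17 RNA stood highest in nucleoplasm, Aspa RNA on chromatin, and Gjc3 RNA was about as high in nucleoplasm as in cytoplasm. Between chromatin and cytoplasm of mNPC, 3 of the 9 were higher on chromatin, beside 37.0% of all genes tested, and 5 were lower, beside 32.5%. The log2 fold change of chromatin over cytoplasm was -3.99 ± 0.18 for Olig1 (edgeR adjusted p = 1.42e-16), -1.73 ± 0.18 for Olig2 (2.63e-09) and -1.6 ± 0.19 for Gjc3 (2.86e-07). It was 1.7 ± 0.22 for Cspg4 (1.12e-07), 1.09 ± 0.24 for Aspa (0.000402) and 0.98 ± 0.2 for Pdgfra (8.78e-05). In TPM the Gjc3 value was -0.24 (limma adjusted p = 0.187). Gpr17 missed the test at 0.44 ± 0.22 (edgeR adjusted p = 0.0853). The mNPC replicate numbers were taken to pair these fractions, and with the replicate block Gpr17 was higher on chromatin by 0.47 (0.00523).

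The calls for Sox10 and Mbp in this comparison rested on single libraries and on the scaling, with -0.61 (edgeR adjusted p = 0.0686) for Sox10 and -0.68 (0.075) for Mbp under library totals. Sox10 was lower on chromatin than in cytoplasm of mNPC by a log2 fold change of -0.78 ± 0.28 (edgeR adjusted p = 0.0173), which became -0.59 (0.109) without mNPC cytoplasm replicate 1 and -0.68 (0.0709) without mNPC chromatin replicate 3. Mbp, at -0.85 ± 0.33 (0.0242), became -0.55 (0.184) without mNPC cytoplasm replicate 1, -0.85 (0.0568) without mNPC chromatin replicate 2 and -0.83 (0.0595) without mNPC chromatin replicate 3. That cytoplasmic library held the highest Mbp, Sox10, Pdgfra and Gpr17 values of the 3 mNPC cytoplasmic libraries.

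Nucleoplasm against cytoplasm set Pdgfra, Cspg4 and Gpr17 furthest from the rest in mNPC. Cspg4 was higher in nucleoplasm by a log2 fold change of 4.81 ± 0.25 (edgeR adjusted p = 1.38e-14), Pdgfra by 3.81 ± 0.22 (9.84e-14) and Gpr17 by 3.71 ± 0.23 (9.65e-10), and Olig1 was lower by -0.74 ± 0.16 (0.000304). These are 3 of the 9 genes higher and 1 lower, beside 22.6% and 27.5% of all genes tested. Scaled to library totals, the share of higher genes among those called was 33.7%, beside 45.1%. The other 5 genes ran from -0.58 ± 0.33 (Mbp) to 0.24 ± 0.19 (Gjc3), with no call. Other settings called Olig2 and Mbp lower. With library totals they were -0.65 (edgeR adjusted p = 0.00571) and -0.84 (0.0392). On the log2(TPM + 1) scale they were -0.87 (limma adjusted p = 0.00108) and -0.51 (0.0253). The replicate block gave -0.43 (edgeR adjusted p = 0.0057) and -0.55 (0.00367), though the numbers were not taken to pair these fractions. Some settings also called Aspa and Gjc3 higher or Sox10 lower. Pdgfra, Cspg4 and Gpr17 encode proteins made at the endoplasmic reticulum (ER), as Gjc3 does. The 8 ER chaperone genes examined after these values were seen were all higher in nucleoplasm than in cytoplasm of mNPC too, with a median log2 fold change of 2.37, and in mESC, with 3.25. In mCtx 5 of those 8 were higher, with a median of 0.57. The part of ER-bound or mitochondrial RNA in the nucleoplasmic values was not tested.

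**Figure D2:**
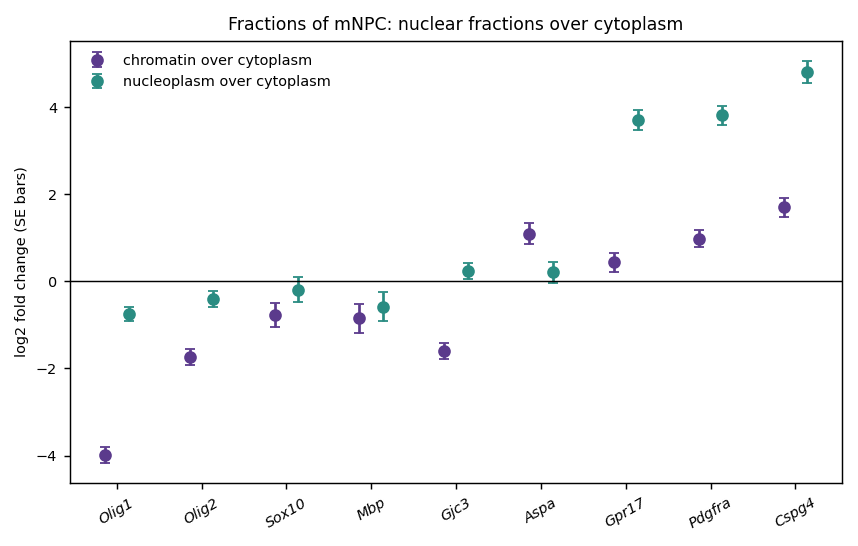
Log2 fold changes of chromatin over cytoplasm and of nucleoplasm over cytoplasm for the 9 genes in mNPC (edgeR, SE bars, 3 libraries per fraction). Gpr17, Pdgfra and Cspg4 stand at 3.71 to 4.81 for nucleoplasm, and Olig1 stands lowest for chromatin at -3.99.

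The neurons and stem cells showed parts of these patterns at lower levels. In mCtx, Cspg4 RNA was higher in nucleoplasm than in cytoplasm by 2.67 ± 0.28 (edgeR adjusted p = 6.88e-09), and Olig1 and Olig2 were lower by -2.14 ± 0.17 (5.17e-11) and -2.05 ± 0.2 (1.17e-09). With Pdgfra at 0.68 ± 0.25 (0.0228), 2 members were higher and 2 lower, beside 29.6% and 28.6% of all genes tested, or a higher share of 36.9% among those called in place of 50.9% when scaled to library totals. The Pdgfra call was lost without mCtx nucleoplasm replicate 1 (0.66, adjusted p = 0.0524), nucleoplasm replicate 2 (0.66, 0.057) or cytoplasm replicate 3 (0.6, 0.0769), and the value was 0.35 (0.238) with library totals. In mESC, Pdgfra was higher in nucleoplasm by 4.58 ± 0.3 (edgeR adjusted p = 1.53e-12), with 403, 183 and 245 counts in nucleoplasm and 16, 3 and 18 in cytoplasm. Cspg4 in mESC was higher by 1.74 ± 0.42 (0.000799) and Sox10 lower by -1.07 ± 0.42 (0.0281), on 3 to 57 counts per library, which makes 2 members higher and 1 lower, beside 29.9% and 33.2%. The mESC replicate numbers pair the fractions, and with the replicate block Aspa was also higher in mESC nucleoplasm, by 0.6 (0.0213). Cspg4 became 1.05 (0.0867) without the 3 mESC libraries numbered 1 and 0.14 on the log2(TPM + 1) scale (limma adjusted p = 0.52), and no TPM setting called it. The Sox10 call in mESC was lost without mESC nucleoplasm replicate 3 (-0.74, adjusted p = 0.131) or cytoplasm replicate 1 (-0.88, 0.104).

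On chromatin against cytoplasm, 4 members were lower in mCtx, beside 37.6% of all genes tested. Olig1 fell by 5.01 on the log2 scale (SE 0.21, edgeR adjusted p = 3.84e-17) and Olig2 by 3.02 (SE 0.21, 8.22e-13). Pdgfra at -0.85 ± 0.3 (0.0122) and Sox10 at -2.52 ± 1.07 (0.0365, from 10 counts in 6 libraries) were the others, and Pdgfra was lost without mCtx chromatin replicate 3 (-0.72, 0.0563). DESeq2 gave Pdgfra -0.57 (adjusted p = 0.0514). The TPM table turned its direction, with 0.53 on the log2(TPM + 1) scale (limma adjusted p = 0.0154). Cspg4 missed the test at 0.65 ± 0.32 (edgeR adjusted p = 0.072), but most other settings called it higher on mCtx chromatin. It was 0.93 in DESeq2 (adjusted p = 0.00207), 0.93 with median-ratio size factors (edgeR adjusted p = 0.0109) and 0.68 with the compared groups alone (0.00699). Without a filter on counts it was 0.76 (0.0169), and on the log2(TPM + 1) scale 0.5 (limma adjusted p = 0.00289). The other TPM settings and the replicate block also called it, while library totals and fits without 1 library did not. Scaled to library totals, 35.9% of the genes called in mCtx were higher on chromatin, beside 48.6%. In mESC, Pdgfra (2.59 ± 0.33, edgeR adjusted p = 1.07e-07), Cspg4 (2.2 ± 0.39, 1.46e-05) and Aspa (1.61 ± 0.29, 4.19e-05) were higher on chromatin, 3 of 9 beside 44.6%, with 67.9% in place of 57.5% of called genes higher when scaled to totals. Olig1 was the 1 lower, at -1.24 ± 0.42 (0.00905), beside 32.9%, and it was -0.79 (0.106) with library totals and -0.01 on the log2(TPM + 1) scale (limma adjusted p = 0.976). It had 3 to 16 counts per library, and the call was lost without mESC chromatin replicate 2 or 3 or cytoplasm replicate 2 (each -0.96, adjusted p = 0.0528, 0.0521 and 0.0688). With the replicate block Mbp was also higher (0.75, 0.000557) and Sox10 lower (-0.79, 0.0279) on mESC chromatin.

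The ratio of chromatin to cytoplasm was itself compared between cell types, as an interaction of cell type and fraction. For Olig1 it was lowest in mCtx and highest in mESC, where the chromatin libraries held 17 counts together. The difference in log2 ratio was -1.03 ± 0.26 between mCtx and mNPC (edgeR adjusted p = 0.00347), -3.77 ± 0.55 between mCtx and mESC (2.5e-06) and -2.74 ± 0.52 between mNPC and mESC (0.00011). The first of these depends on the table: it was 0.68 on the log2(TPM + 1) scale (limma adjusted p = 0.0144), 0.3 on the log2(TPM + 0.1) scale (0.457) and -0.14 in TPM rescaled by median-ratio size factors (0.491). For Pdgfra the ratio was lower in mCtx than in mNPC by -1.83 ± 0.36 (edgeR adjusted p = 0.000229) and lower in mNPC than in mESC by -1.61 ± 0.4 (0.00193), and the second was 0.74 on the log2(TPM + 1) scale (limma adjusted p = 0.0327), -0.68 with log2(TPM + 0.1) (0.256) and 1.27 in rescaled TPM (6.45e-05). In all, 4 members were lower between mCtx and mNPC, beside 21.8% of all genes tested, 3 between mCtx and mESC, beside 32.5%, and 3 between mNPC and mESC, beside 23.5%. Mbp did not pass in either comparison with mCtx. It was higher between mCtx and mNPC by 0.99 (edgeR adjusted p = 0.000659) and lower between mCtx and mESC by -0.59 (0.0445) with the replicate block, though the mCtx numbers pair no samples. DESeq2 also called the first (1.25, adjusted p = 0.0347), as did median-ratio size factors (1.25, edgeR adjusted p = 0.0412) and the compared groups alone (1.1, 0.0011). So did no filter on counts (1.08, 0.0455), log2(TPM + 1) (0.82, limma adjusted p = 0.00539), log2(TPM + 0.1) and unfiltered TPM. Library totals, rescaled TPM and any fit without 1 library did not. Library totals (-1.55, edgeR adjusted p = 0.00832) and rescaled TPM (-0.51, limma adjusted p = 0.0422) called the second. The split of called genes in these 3 comparisons depends on the scaling: 35.9%, 35.2% and 41.5% were higher with TMM factors, 53.5%, 47.3% and 44.3% with median-ratio size factors, and 5.5%, 6.2% and 25.5% with library totals. Between mCtx and mNPC, Cspg4 (-1.05 ± 0.39, edgeR adjusted p = 0.0373) was lost without any 1 of 8 of the 12 libraries compared, with values of -1.1 to -0.88 and adjusted p of 0.0517 to 0.139. It was also lost in DESeq2 (-0.81, adjusted p = 0.0688), with median-ratio size factors (-0.82, edgeR adjusted p = 0.111) and with log2(TPM + 0.1) (-0.87, limma adjusted p = 0.101).

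Since the Olig genes are neighbours on 1 strand with short spans, their ratio was also taken within each library, from TPM. Olig1 to Olig2 was 0.626, 0.497 and 0.649 on the chromatin of mCtx and 0.498, 0.563 and 0.501 on that of mNPC. In cytoplasm it was 1.88, 1.86 and 1.98 in mCtx and 1.7, 2.03 and 1.83 in mNPC. Olig2 thus exceeded Olig1 on chromatin in all 6 of these libraries, and Olig1 exceeded Olig2 in all 6 cytoplasmic ones. The nucleoplasm lay near the cytoplasm, at 1.81 ± 0.121 in mCtx and 1.56 ± 0.247 in mNPC (SD, n = 3 each). With 3 libraries against 3 an exact permutation test cannot go below p = 0.1, so none is given for this ratio. In mESC, Olig2 was at 3 counts or fewer in each library, and no ratio was taken.

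**Figure D3:**
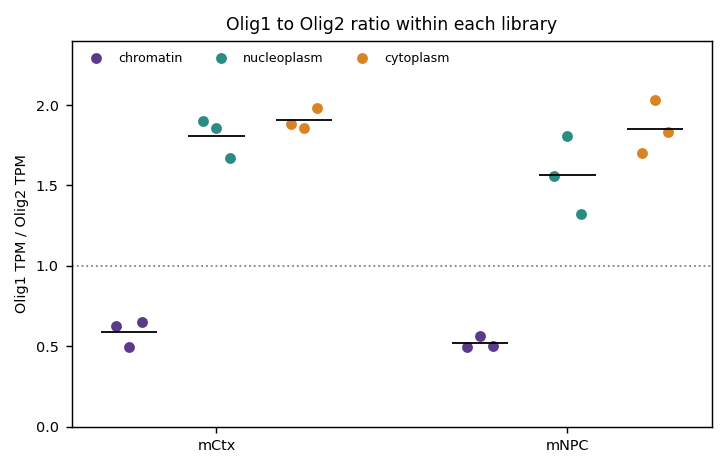
TPM of Olig1 over TPM of Olig2 in each mCtx and mNPC library (points) with group means (lines), by fraction, and a dotted line at equal levels. The chromatin libraries lie at 0.497 to 0.649 and the cytoplasmic ones at 1.7 to 2.03 in both cell types.

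Other genes of the lineage, from lists that hold none of the 9, are set beside them. Of 15 oligodendrocyte precursor genes tested, 14 were higher and 1 lower in mNPC than in mESC in cytoplasm, beside 36.5% and 39.4% of all genes tested, with a median log2 fold change of 5.38, beside -0.07 over all genes tested. On chromatin 13 were higher and 1 lower, beside 33.8% and 42.7%. Ednrb, an endothelin receptor, averaged 1033.6 ± 198.3 CPM in the mNPC cytoplasm and 0.0378 ± 0.0328 CPM in that of mESC. Ptprz1, a receptor phosphatase, averaged 304.9 ± 28.6 CPM in mNPC and 0.834 ± 0.116 CPM in mESC (SD, n = 3 each). Between mCtx and mNPC the list split, 5 higher and 8 lower in cytoplasm, beside 32.6% and 33.4% of all genes tested, with a median of -0.74: Sox8, a relative of Sox10, averaged 27 ± 2.7 CPM in mCtx and 381.0 ± 44.1 CPM in mNPC, while Luzp2 averaged 17.2 ± 1.88 CPM in mCtx and 0.498 ± 0.163 CPM in mNPC. The 5 of 15 that stood higher in mCtx lie near the share over all genes, and no difference from the 9 genes was tested.

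Genes of committed and myelinating oligodendrocytes were mixed even between mNPC and mESC. Of 22 tested, 12 were higher and 8 lower in cytoplasm, beside 36.5% and 39.4% of all genes tested, with a median of 2.15. On chromatin 9 were higher and 10 lower, beside 33.8% and 42.7%, with a median of -0.24. Zfp488, a zinc finger regulator of oligodendrocytes, averaged 6.26 ± 0.974 CPM in the mNPC cytoplasm and 0.0756 ± 0.0657 CPM in that of mESC. Myrf, a transcription factor that drives myelin genes, went the other way, with 0.923 ± 0.388 CPM in mNPC and 38.8 ± 15.7 CPM in mESC, and Bmp4, a secreted ligand with roles in many tissues, was at 0 in mNPC and at 22.4 ± 11.8 CPM in mESC. In mCtx against mNPC, 4 were higher and 15 lower in cytoplasm, beside 32.6% and 33.4%, with a median of -2.78. Cnp, an enzyme of myelin that is present in precursors as well, averaged 9.66 ± 1.77 CPM in mCtx and 558.3 ± 94.4 CPM in mNPC, and Bcas1, which marks early myelinating cells, averaged 0.362 ± 0.159 CPM in mCtx and 40.9 ± 1.68 CPM in mNPC. Of the 26 listed genes, Bmp4 and Mobp had 0 counts in each mNPC fraction and Mog on its chromatin and in its nucleoplasm. On mCtx chromatin 7 of the 26 had 0 counts. In cytoplasm 6 were at a mean of 1 TPM or more in mNPC, 3 in mCtx and 7 in mESC.

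Signals that act on the lineage were called in both directions, as all genes were. Of 20 tested, 10 were higher and 6 lower in mNPC than in mESC in cytoplasm, beside 36.5% and 39.4% of all genes tested, with a median of 1.33. In mCtx against mNPC 9 were higher and 8 lower, beside 32.6% and 33.4%, with a median of 0.55. Hes5, a target of Notch, averaged 541.7 ± 62.1 CPM in the mNPC cytoplasm and 0.449 ± 0.241 CPM in that of mESC. Fgfr3, an FGF receptor, averaged 194.5 ± 3.75 CPM in mNPC and 1.66 ± 0.773 CPM in mESC. Gli1, a target of hedgehog signalling, averaged 0.0775 ± 0.028 CPM in mNPC and 21.0 ± 2.69 CPM in mESC (SD, n = 3 each), so that the signals differed in direction.

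Astrocyte and neural progenitor markers moved with the 9 genes in mNPC, while other lists did not. All 8 astrocyte markers were higher in mNPC than in mESC in cytoplasm, beside 36.5% of all genes tested. On chromatin and in nucleoplasm 7 of the 8 were, beside 33.8% and 35.7%. Of 10 neuron markers 3 were higher and 4 lower in cytoplasm, beside 36.5% and 39.4%. In cytoplasm the astrocyte markers summed to 50.6 to 54.0 TPM in mCtx, 170.5 to 237.7 TPM in mNPC and 30.5 to 34.0 TPM in mESC. The 7 neural progenitor markers summed to 268.1 to 336.1 TPM in mCtx, 1201.2 to 1500.1 TPM in mNPC and 164.4 to 165.3 TPM in mESC. The 9 genes themselves summed to 17.8 to 23.4 TPM in mCtx, 181.4 to 237.8 TPM in mNPC and 1.48 to 1.9 TPM in mESC in the same fraction. Microglia markers stayed at 0.06 to 0.11 TPM and endothelial ones at 0.09 to 0.12 TPM in the mNPC cytoplasm. In mESC, whose Pdgfra and Sox10 were above those of mCtx in nucleoplasm by CPM, other lists also stood higher. In nucleoplasm the 8 primitive endoderm markers summed to 29.8 to 32.6 TPM in mCtx, 7.27 to 10.4 TPM in mNPC and 54.2 to 84.4 TPM in mESC. The 6 Schwann cell and neural crest markers summed to 1.81 to 2.27 TPM in mCtx, 0.25 to 1.13 TPM in mNPC and 6.51 to 14.2 TPM in mESC. The part of such cells in the results was not tested.

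**Figure D4:**
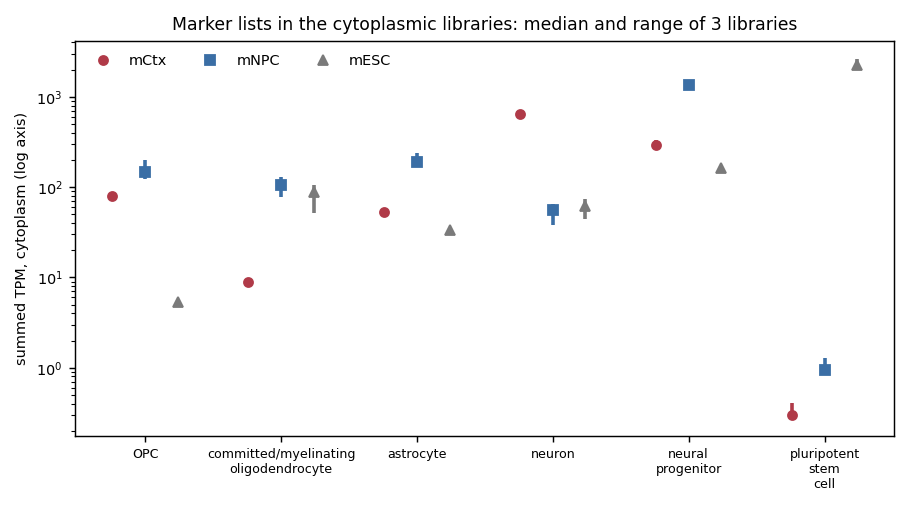
Summed TPM of 6 marker lists in the cytoplasmic libraries of mCtx, mNPC and mESC on a log axis, as the median (symbols) and range (bars) of 3 libraries. Precursor, astrocyte and progenitor lists stand highest in mNPC, the neuron list in mCtx, and the committed/myelinating list overlaps between mNPC and mESC.

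Among themselves, the 9 genes formed tighter and looser pairs over the 27 libraries, which share 3 cell types and 3 fractions and so are not independent points. Pearson's r of log2(CPM + 1) was 0.98 for Olig1 with Olig2, 0.97 for Sox10 with Gjc3, 0.95 for Gpr17 with Cspg4 and 0.94 for Gpr17 with Pdgfra. It was 0.1 for Aspa with Mbp, the lowest of all pairs, and Mbp reached at most 0.69, with Olig2. Among 14422 other genes, those most like Olig2 were Cdkn2c, a cyclin-dependent kinase inhibitor (0.993), Ndp (0.991) and Sox8 (0.991). Olig1 was most like Nap1l5, Pou3f4 and Prr18 (0.988 to 0.992). Pdgfra was most like Ifngr1, Notch1 and A2m (0.972 to 0.985), and Cspg4 like Loxl3 and the collagens Col4a5 and Col5a2 (0.985 to 0.99), all of which encode membrane or secreted proteins. Gpr17 was most like Slc27a6, Lgi3 and Fbln2 (0.981 to 0.993), and Gjc3 like Actc1, Scrg1 and Ramp1 (0.994 to 0.998). Sox10 was most like Kif19a, Rtkn and Snx33 (0.984 to 0.988), Aspa like Prkd3, 5930412G12Rik and Als2cl (0.97 to 0.986), and Mbp, with the lowest values, like Rsph3a, Mvb12b and Zfp426 (0.904 to 0.921).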

How the data were processed

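The deposited count table holds whole-number counts per gene for 27 libraries, and its chromatin columns, recorded here under expected counts, are whole numbers as well. Each gene's length in the deposited table equals its genomic span, so introns were counted. The authors also deposited a table in TPM. STAR, featureCounts and kallisto are named in the submitters' processing notes with build mm10, without versions, and strand settings are not given in the sources used here. Symbols came from GENCODE for 35449 of 37332 gene IDs in the count table and 53274 of 53379 in the TPM table.

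Counts were fitted over all libraries with 9 groups in edgeR 4.0.16 (TMM, filterByExpr, glmQLFit, glmQLFTest), which kept 18249 genes with 18 residual degrees of freedom and a common biological coefficient of variation of 0.1555. P-values were adjusted by Benjamini-Hochberg over all genes of a comparison at 0.05. Fold changes run first named over second named. Alternatives were DESeq2 1.42.0 and limma 3.58.1 on log2(TPM + 1), among those below. Members and lists were chosen with earlier results of these data known, and all members are named. Other list genes are the up to 3 largest changes per list past the threshold with a mean of 5 CPM or more in a group. One gene that this rule names is not reported here. Nucleoplasm against cytoplasm and the ER chaperones were added after the data were seen. The labels call the replicates biological, and p-values measure the spread between them. A floor is 3 counts per library, and floors and intervals cover counting error only. Same-numbered libraries deviated together between the fractions of mESC (r of 0.3697 to 0.7428). They did so more weakly between chromatin and cytoplasm of mNPC (0.1509 to 0.3141), and the numbers were taken to pair both. They were not taken to pair nucleoplasm and cytoplasm of mNPC (-0.03692 to 0.2233), any cell types or the fractions of mCtx. The 4 members on which a blocked fit changed a call in the paired comparisons are given beside their results.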

Additional observations from a re-analysis of the deposited data

Results flagged for a closer look

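The chromatin-to-cytoplasm ratio differed between cell types for several of the genes by the interaction test, as a log2 difference of ratios. Between mCtx and mNPC it was -1.03 for Olig1, -1.29 for Olig2, -1.83 for Pdgfra and -1.05 for Cspg4. Between mCtx and mESC it was -3.77 for Olig1, -3.44 for Pdgfra and -1.56 for Cspg4. Between mNPC and mESC it was -2.74 for Olig1, -1.61 for Pdgfra and -1.54 for Mbp. These comparisons share groups, so their values are not independent. On the log2(TPM + 1) scale the values of Olig1 and Olig2 between mCtx and mNPC and that of Pdgfra between mNPC and mESC change sign. In rescaled TPM those of Olig1 and Olig2 do not, and with log2(TPM + 0.1) that of Pdgfra does not. Between mCtx and mESC, Pdgfra was -0.31 (limma adjusted p = 0.33) and Cspg4 -0.06 (0.797) on the log2(TPM + 1) scale, and neither passed. The Mbp value was lost without mNPC cytoplasm replicate 1 (-1.24, edgeR adjusted p = 0.0515), and that of Olig1 between mNPC and mESC without the 3 mESC libraries numbered 1 (-1.8, adjusted p = 0.0674). That of Cspg4 between mCtx and mNPC was lost in DESeq2 (-0.81, adjusted p = 0.0688), with median-ratio size factors (-0.82, edgeR adjusted p = 0.111) and in most fits without 1 library.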

How the results depend on the processing

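Of 2207 values of single members under other settings, 2028 kept their side of the threshold and, where past it, their direction, 83 kept the direction but lost the threshold, 71 gained it and 25 past it in either setting changed sign, all 25 in TPM. No such change came with DESeq2, median-ratio factors, library totals, no filter on counts, the compared groups alone, the replicate block or any 1 library left out. On the log2(TPM + 1) scale Aspa between mCtx and mESC on chromatin was 0.13, Pdgfra between chromatin and cytoplasm in mCtx 0.53, and the ratio difference 1.44 for Cspg4 and 0.74 for Pdgfra between mNPC and mESC, and 0.28 for Olig2 and 0.68 for Olig1 between mCtx and mNPC. Without a filter these 6 values were the same, and Sox10 was 0.25 between chromatin and cytoplasm in mESC and -0.46 for its ratio between mNPC and mESC. With log2(TPM + 0.1) the values were 0.18 for Aspa, 1.33 for Pdgfra in mCtx, 0.14 for Olig2 and 0.3 for Olig1. With TPM rescaled (added after seeing the data) they were -0.0 for Mbp and 0.12 for Aspa between mCtx and mESC on chromatin, 0.04 for Olig1 in mESC, 0.1 for Gjc3 in mNPC and 0.36 for Pdgfra in mCtx between chromatin and cytoplasm, and 1.96 for Cspg4 and 1.27 for Pdgfra in ratio between mNPC and mESC. The cause was not tested. Sox10 did not pass the TPM filter and has no value in the filtered TPM settings.

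Counts of members called moved as follows. Between mCtx and mESC on chromatin 6 became 3 with log2(TPM + 1), log2(TPM + 0.1) or rescaled TPM and 2 without a filter, and in cytoplasm 7 became 3, 4, 4 and 3. In nucleoplasm against cytoplasm of mESC 3 became 1 in log2(TPM + 1), in log2(TPM + 0.1), unfiltered or without the mESC libraries numbered 1, and in mNPC 4 became 7 with the compared groups alone or unfiltered TPM. For chromatin against cytoplasm in mCtx 4 became 7 in unfiltered TPM. The ratio count between mNPC and mESC, 3, became 7 with log2(TPM + 1), 8 unfiltered and 6 rescaled. Between mCtx and mNPC 4 became 7 and 8 unfiltered, and between mCtx and mESC 3 became 5 with library totals. Leaving out 1 library gave 2 to 4 for chromatin against cytoplasm in mCtx, where the value was 4, and 2 only without chromatin replicate 3. The replicate block gave 9 in place of 8 members between mCtx and mNPC on chromatin, where the numbers do not pair the samples, and lost no member in any comparison.

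Over all genes, library totals moved the median log2 fold change by -1.01 (ratio, mCtx against mESC) to 0.46 (chromatin against cytoplasm, mESC). Counts of called genes passed 1.5 times the reported ones mostly in TPM: between mCtx and mNPC in ratio 6204 genes became 9724 with totals and 13343 to 19673 in TPM, between mCtx and mESC 9158 became 13916 to 20895, and between mNPC and mESC 7337 became 11254 to 13701. Between chromatin and cytoplasm of mCtx 13370 became 20207 to 26473, in that of mESC 14138 became 24612, and between nucleoplasm and cytoplasm of mCtx 10625 became 16339 and 16769. Between cell types on chromatin 13959, 14660 and 12657 became 23458 (mNPC and mESC), 25431 (mCtx and mESC) and 24961 (mCtx and mNPC) unfiltered, with 19133 in filtered TPM for the last, and 13094 became 20684 in nucleoplasm between mCtx and mNPC. Depth limits Olig2, Gpr17 and Gjc3 in mESC and Sox10, Gpr17, Aspa and Gjc3 in mCtx, which stood at or near the floor. It also limits Olig1 on mESC chromatin, with 11, 3 and 3 counts.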

Other observations

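In the fractions of mNPC the wider lineage lists also held genes higher and genes lower in nucleoplasm. Of 20 signals of the lineage, 12 were higher and 2 lower in nucleoplasm than in cytoplasm, beside 22.6% and 27.5% of all genes tested, with a median log2 fold change of 1.08. Of 15 precursor genes, 6 were higher and 3 lower (median 0.72), and of 22 genes of committed and myelinating cells 9 were higher and 4 lower (median 0.71). The 7 neural progenitor markers went mostly the other way, with 1 higher and 6 lower (median -0.92). All of these lists were compared as counts, and no difference between lists was tested.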
